A study of Mus musculus with 2 samples.

Results

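The interferon-stimulated and RNA sensor genes described here are 50 mouse genes chosen by symbol for their function, with earlier results of these data known. They comprise cytosolic and endosomal RNA sensors, interferon receptors, the transcription factors that act downstream of both, and genes whose transcription interferon induces. Of the 50 symbols, 46 matched a row among the 22383 genes of the deposited table. Ifit3b, Mx1, Mx2 and Ifi44 matched none and are not analysed here. A gene was taken as measured if its larger count was 20 or more, as for 37 of the 46. The other 9 had at most 18 counts in either library.

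RNA was sequenced from iHFSC2, immortalized mouse cells of hair follicle stem cell origin, in 2 forms with 1 library each. One form was infected with lentivirus carrying the empty vector, and the other with lentivirus carrying pwslv-shcircSmad5, a short hairpin that targets circSmad5, a circular transcript of the Smad5 gene. Both carried the lentiviral vector and both were selected with puromycin, added 4 days after infection, with stable lines taken at day 15. There was no line with a control hairpin, so effects of any hairpin RNA and those of losing circSmad5 cannot be told apart, nor can differences between 2 separately selected lines. The comparison asks which genes change when circSmad5 is knocked down. The hairpin's target is shown because the genes below include sensors of double-stranded RNA.
Target of the hairpin: tccagcagaggacttgcacta
The longest exact run of this 21-base target found in an annotated transcript of any of the 37 measured genes was 11 bases, in Xaf1. Of 13334 measured genes with annotated transcripts, 2.87% held a run of at least that length.

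Cells detect viral or otherwise foreign RNA with helicases in the cytosol and with a Toll-like receptor in endosomes. These signal through adaptor proteins to the IRF family of transcription factors, which switch on interferon genes. Secreted interferon binds receptors at the cell surface and, through JAK kinases, assembles a complex that holds STAT2 and IRF9. That complex binds the interferon-stimulated response element, a DNA element in the promoters of many genes, among them the Ifit, Oas, Mx and Gbp families and many of the sensors themselves. Keratinocytes express much of this machinery without infection.

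Counts summed to 39261010 with the empty vector and 38382081 with shcircSmad5. Levels are given as CPM, a gene's count over the library's total on a fixed scale, after scaling by the trimmed mean of M values (TMM), or as the deposited FPKM where different genes are compared, since FPKM is corrected for gene length. Ratios are shcircSmad5 over empty vector, with an exact Clopper-Pearson 95% interval from how a gene's counts divided between the libraries. Without molecular identifiers, reads do not stand for independent molecules, so the intervals cover counting error only and not the spread between cultures. A size rule stood in for a test: a ratio of at least 2-fold either way, with an interval that does not reach 1. With 1 library per group there is no p-value, and none of the differences has a replicate check. Smad5 itself had 3109 and 3413 counts, a log2 ratio of 0.10 (0.03 to 0.18), and a gene count does not separate its circular from its linear RNA.

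The line was keratinocyte-like by its markers. The basal keratin genes Krt5 and Krt14 stood at 2394 and 2361 FPKM in the empty vector library. Markers of hair follicle stem cells were mixed. The bulge marker Cd34 was listed at 0 in both libraries and Lhx2 had 4 and 5 counts. Sox9, Nfatc1 and Tcf7l1 were detected, at 54.4, 7.84 and 3.14 FPKM with the empty vector. Of the 9 measured markers of keratinocytes and hair follicle stem cells, 1 was lower, the keratin gene Krt15, with 253 and 79 counts, 3.27-fold (2.53 to 4.26), and Sox9 had a log2 ratio of -0.77 (-0.82 to -0.72). Markers of immune cells were sparse. The macrophage genes Lyz2 and Itgam had 0 counts in both libraries, where a count of 0 allows up to 3. The 6 of 8 macrophage and monocyte markers with a row summed to 9.71 CPM with the empty vector and 8.52 CPM with shcircSmad5, mostly from Cd68 (249 and 225 counts). Those of lymphocytes (4 of 8) summed to 0.599 and 0.204 CPM, and those of dendritic cells (2 of 6) to 0.833 and 0.612 CPM. Markers of fibroblasts (7 of 8, 5.54 and 2.07 CPM, with Col1a1, Dcn and Lum at 0 in both libraries), of endothelial cells (4 of 6, 3.10 and 0.790 CPM, with Cdh5 at 0 in both) and of melanocytes (2 of 6, 0.625 and 0.816 CPM) were as sparse. Csf1r, Pdgfra, Twist2, Pecam1 and Kdr were lower by the size rule, on 33 to 161 counts with the empty vector, and the part of these cells in the results below was not tested. In bulk RNA, fewer cells that express a gene and less of its RNA per cell cannot be told apart.

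By the size rule, 8 of the 37 measured genes were higher in the shcircSmad5 library and 2 were lower. The higher ones were Ifit1, Herc6, Dhx58, Ifih1, Xaf1, Gbp7, Gbp3 and Rsad2, and the lower ones were Samhd1 and Tlr3. Among all 13596 measured genes, 8.43% were higher and 6.24% lower by the same rule. The share of the 37 that was higher (21.6%) lay above this background, and the share that was lower (5.41%) was near it. Because the 37 were chosen with earlier results of these data known, the comparison is a description and not a test. Among protein-coding genes alone the background was 4.61% higher and 6.38% lower. Among genes whose larger count lay within that of the 37, from 28 to 11585, it was 7.81% higher and 6.05% lower. The median log2 ratio of the 37 was 0.05, beside -0.02 over all measured genes, with quartiles of -0.16 and 0.61. Of the 27 past neither limit, 9 had an interval wholly above a log2 ratio of 0, 9 wholly below it and 9 spanning it, and their log2 ratios ran from -0.49 (Oas3) to 0.88 (Gbp2).

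**Figure D1:**
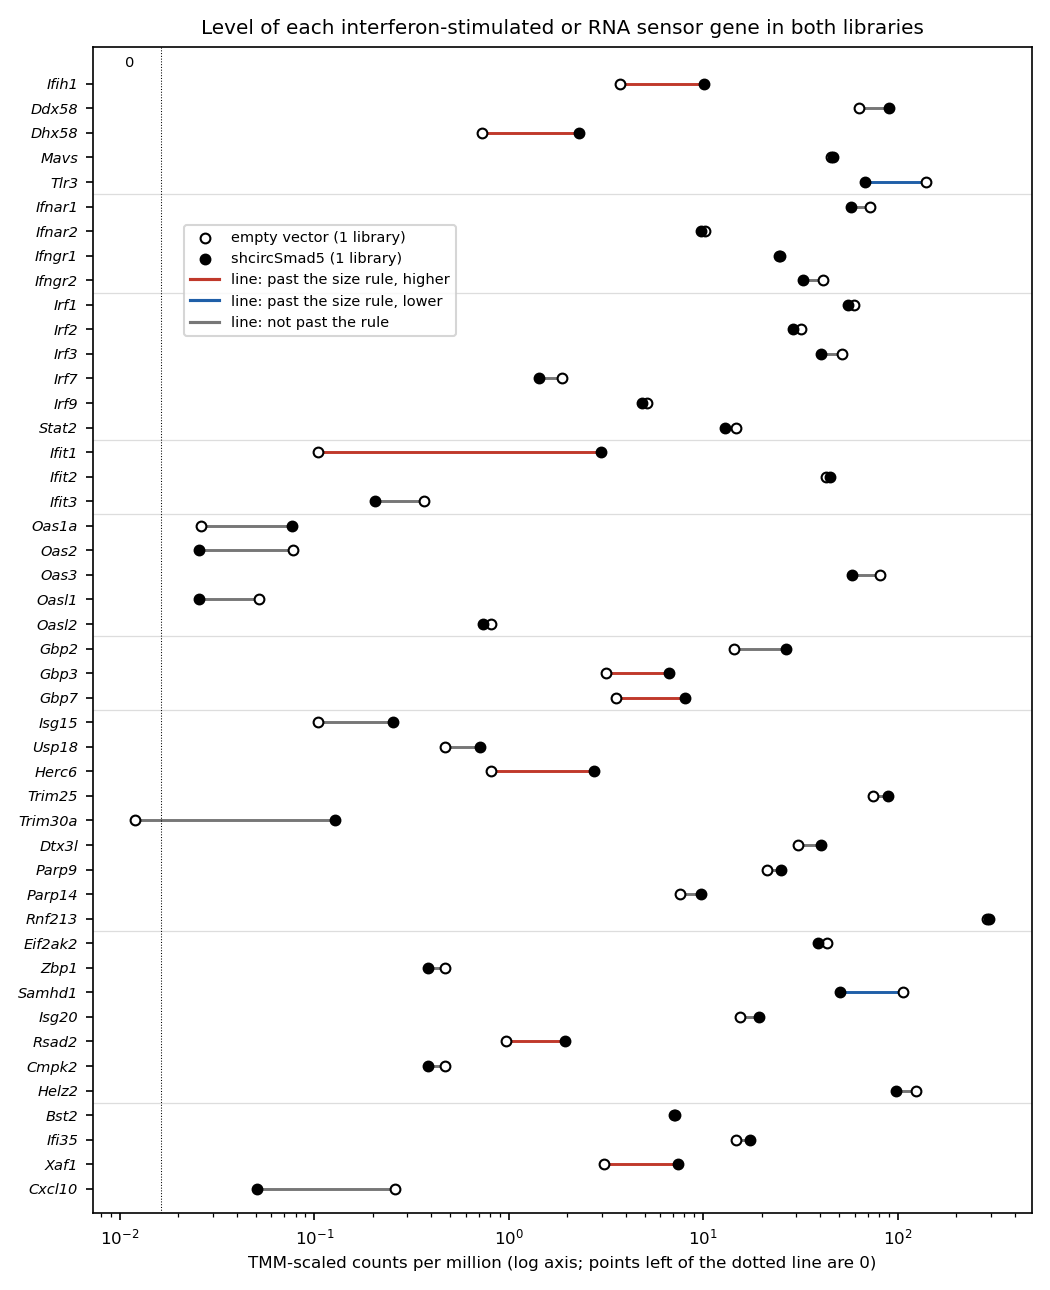
Level of the 46 genes with a row, in TMM-scaled CPM on a log axis, with the empty vector (open points) and with shcircSmad5 (filled points), grouped by role. Red lines mark the 8 genes past the size rule in the higher direction and blue lines the 2 in the lower direction. All 8 higher genes lie at or below 10.04 CPM in both libraries.

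The higher and the lower genes differed in level. All 8 higher genes were scarce in both libraries, at 0.104 to 3.72 CPM with the empty vector and 1.94 to 10.04 CPM with shcircSmad5. Tlr3 and Samhd1 were abundant, at 140 and 106 CPM in the empty vector library. Split at a mean of 10 CPM, a limit chosen after the data were seen, 8 of 15 scarcer genes were higher and 0 lower. The background of scarcer genes was also broader, with 20.9% higher and 12.1% lower over all genes, and 14.6% and 16.3% over protein-coding ones. Of the 22 genes at 10 CPM or more, 0 were higher and 2 lower, beside 1.42% and 2.93% of all genes at that level. The median log2 ratio was 1.01 for the 15 and -0.05 for the 22.

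**Figure D2:**
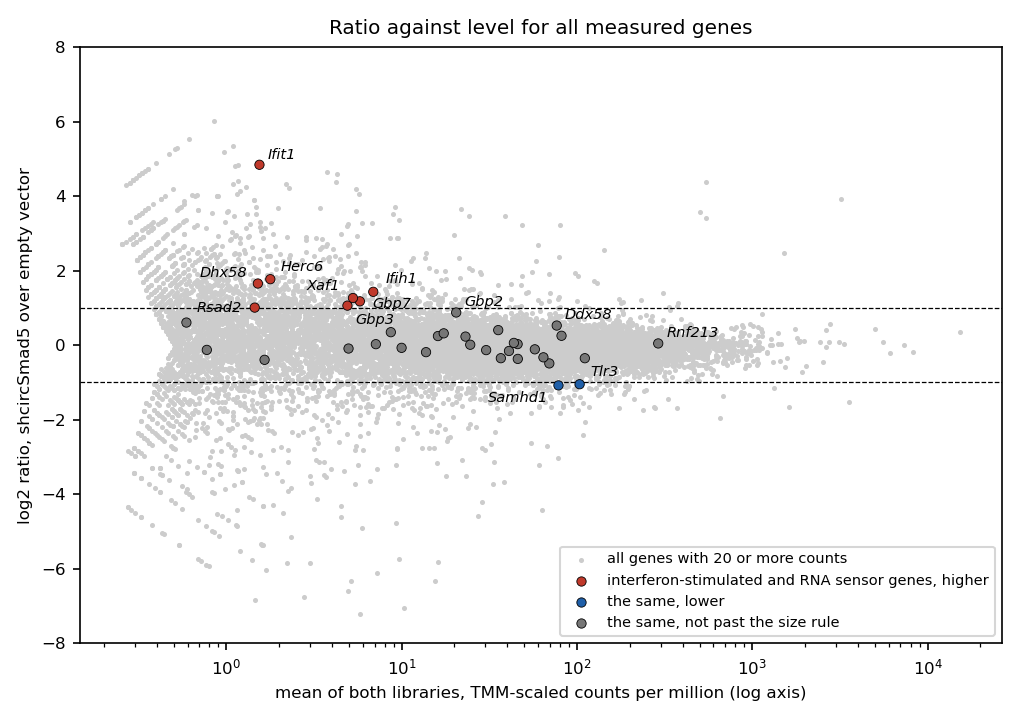
Log2 ratio of shcircSmad5 over empty vector against the mean level of both libraries (TMM-scaled CPM, log axis) for all 13596 measured genes in grey and the 37 interferon-stimulated and RNA sensor genes in colour. Dashed lines mark 2-fold. The 8 higher genes sit left of 10 CPM, and the 2 lower ones near 100 CPM.

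Other limits changed the counts as follows. At 1.5-fold 9 of the 37 were higher, with Gbp2 added, beside 13.9% of all genes, and 2 were lower, beside 12.9%. At 3-fold 3 were higher, Ifit1, Herc6 and Dhx58, beside 4.35%, and 0 were lower, beside 3.10%. With a minimum of 10 counts 8 of 42 were higher and 3 lower, with Cxcl10 added, beside 9.96% and 7.12%, and with no minimum 8 of 46 and 3, beside 8.03% and 5.97%. With a minimum of 50 counts 8 of 35 were higher and 2 lower, beside 5.77% and 5.06%. With 100 counts 6 of 32 were higher and 2 lower, beside 4.04% and 4.26%, without the scarce Dhx58 and Rsad2.

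Among the RNA sensors, 2 of the 3 cytosolic helicase genes were higher and the gene of the endosomal receptor was lower. Over all measured genes 8.43% were higher and 6.24% lower, and under a mean of 10 CPM 20.9% and 12.1%. The role groups in this and the following paragraphs are small, so their counts are descriptions. Ifih1 (ENSMUSG00000026896, GRCm38 chromosome 2, 62595798 to 62646255) encodes MDA5, a sensor of long double-stranded RNA. Its count was 143 with the empty vector and 394 with shcircSmad5, a ratio of 2.70 (2.22 to 3.29). Dhx58, which encodes LGP2, a relative that regulates MDA5 and RIG-I, had 28 and 90 counts, a ratio of 3.15 (2.04 to 5.00), and 4.31% of its exonic bases lie opposite Dhx58os, with 0 and 4 counts. Ddx58, the gene of RIG-I, a sensor of RNA with a 5′ triphosphate, is far more abundant in these cells. It had 2412 and 3548 counts, a log2 ratio of 0.53 (0.45 to 0.60), which is short of the 2-fold limit. The 3 helicase genes therefore stood above a log2 ratio of 0 with intervals that do not reach it. Mavs, the mitochondrial adaptor through which RIG-I and MDA5 signal, had 1743 and 1816 counts, a log2 ratio of 0.03 (-0.07 to 0.12).

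Tlr3 (ENSMUSG00000031639, chromosome 8, 45395665 to 45411080) encodes the endosomal receptor of double-stranded RNA. It went from 5360 to 2648 counts, 2.07-fold lower (1.97 to 2.17). With total counts in place of TMM its log2 ratio was -0.98, inside the 2-fold limit, and it was not past the rule with upper quartile scaling or FPKM either. Chromosome 8 had a median of -0.13 over its measured genes, and with every chromosome's median set to 0 the value for Tlr3 was -0.92. Of the 3 measured protein-coding neighbours on either side of Tlr3, Sorbs2 was also lower (log2 ratio -1.32) and the median of the 6 was -0.32. In FPKM, which allows genes to be compared, Tlr3 had the highest level of the 46 in the empty vector library (26.2) and rank 5 with shcircSmad5 (13.2). Its FPKM was 3.01 times that of Ddx58 in the empty vector library and 1.01 times in the shcircSmad5 library. The noncoding gene Gm45542 overlaps 7.32% of the exonic bases of Tlr3 on the other strand and had 0 and 4 counts. The promoter windows of Ifih1 (chr2:62646206-62646505, minus strand) and Tlr3 (chr8:45410331-45410630, minus strand), from RefSeq on GRCm38.p6, are shown because these sensors of double-stranded RNA moved in opposite directions. Each window holds 250 bases before and 50 after the annotated start, and capitals mark the core of the interferon-stimulated response element, TTTC, any 2 bases and TTTC, or on the other strand GAAA, any 2 bases and GAAA.
Ifih1: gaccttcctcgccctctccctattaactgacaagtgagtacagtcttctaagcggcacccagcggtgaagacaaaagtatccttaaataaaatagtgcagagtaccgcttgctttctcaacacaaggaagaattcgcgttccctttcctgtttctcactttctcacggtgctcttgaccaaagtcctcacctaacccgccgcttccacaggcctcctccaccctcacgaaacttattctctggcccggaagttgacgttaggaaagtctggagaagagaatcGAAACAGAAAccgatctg
Tlr3: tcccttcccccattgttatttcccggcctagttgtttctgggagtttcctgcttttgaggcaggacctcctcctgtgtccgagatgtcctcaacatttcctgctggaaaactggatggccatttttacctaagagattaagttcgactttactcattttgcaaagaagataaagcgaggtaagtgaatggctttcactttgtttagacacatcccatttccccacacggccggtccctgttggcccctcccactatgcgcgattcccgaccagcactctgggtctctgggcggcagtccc
The Ifih1 window held 1 match, just after its start, and the Tlr3 window held none. The Tlr3 window lies inside the gene span given above, which on the minus strand begins at 45411080. The sequence around that outer start was not searched.

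No interferon receptor gene passed the size rule. Ifnar1 and Ifnar2 encode the receptor of type I interferon, and Ifngr1 and Ifngr2 that of interferon gamma. Ifnar1 had 2749 and 2240 counts, a log2 ratio of -0.33 (-0.41 to -0.24), and Ifngr2 had 1583 and 1269, a log2 ratio of -0.35 (-0.46 to -0.24). Ifnar2 (393 and 382 counts) and Ifngr1 (941 and 969 counts) had log2 ratios of -0.07 and 0.01, with intervals that span 0. Ifnar1, Ifnar2 and Ifngr2 all lie on chromosome 16, which had a median of 0.11 over its measured genes. With each chromosome centred their log2 ratios were -0.43, -0.18 and -0.46.

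The transcription factor genes were near level, all 6 of them with log2 ratios between -0.39 and -0.09. Irf3, the factor that RIG-I and MDA5 activate, had 1989 and 1574 counts, a log2 ratio of -0.37 (-0.46 to -0.27). Irf7, which amplifies the response and is itself induced by interferon, stayed scarce, with 72 and 56 counts. Stat2 had 563 and 505 counts and Irf9 had 197 and 189, log2 ratios of -0.19 (-0.36 to -0.01) and -0.09 (-0.39 to 0.21). Irf1 (2293 and 2168 counts) and Irf2 (1218 and 1135), an activator and a repressor of interferon genes, had log2 ratios of -0.11 and -0.13.

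The Ifit genes, which encode proteins that bind viral RNA and block its translation, differed in both level and ratio. Ifit1 (ENSMUSG00000034459, chromosome 19, 34640871 to 34650009) had the highest ratio of the 37, with 4 counts against 117 with the hairpin, 28.6-fold higher (10.9 to 107). The size of this ratio rests on the 4 counts. As a log2 ratio it was 4.84 (3.45 to 6.74), and 4.285 with a prior count of 2. With the deposited FPKM as log2(FPKM + 0.1) it was 3.17, below that interval. Its level in the shcircSmad5 library was still low, 2.98 CPM or 1.15 FPKM. Ifit2 was abundant in both, with 1641 and 1748 counts, a log2 ratio of 0.06 (-0.04 to 0.16). Ifit3 was scarce in both, with 14 and 8 counts. In FPKM, Ifit2 stood 277 times above Ifit1 in the empty vector library and 10.1 times above it in the shcircSmad5 library. These genes lie within 100 kb of each other, and the other measured neighbours of Ifit1, 6 in all with Ifit2 among them, had a median log2 ratio of -0.02. The windows of Ifit1 (chr19:34640639-34640938, plus strand) and Ifit3 (chr19:34583279-34583578, plus strand) are shown because both hold the response element core, while Ifit1 was higher and Ifit3 had too few counts to call.
Ifit1: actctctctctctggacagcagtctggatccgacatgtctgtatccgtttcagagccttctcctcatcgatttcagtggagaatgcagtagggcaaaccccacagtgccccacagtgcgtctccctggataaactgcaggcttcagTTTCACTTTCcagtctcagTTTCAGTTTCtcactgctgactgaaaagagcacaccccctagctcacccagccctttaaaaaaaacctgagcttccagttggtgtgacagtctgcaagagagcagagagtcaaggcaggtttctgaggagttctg
Ifit3: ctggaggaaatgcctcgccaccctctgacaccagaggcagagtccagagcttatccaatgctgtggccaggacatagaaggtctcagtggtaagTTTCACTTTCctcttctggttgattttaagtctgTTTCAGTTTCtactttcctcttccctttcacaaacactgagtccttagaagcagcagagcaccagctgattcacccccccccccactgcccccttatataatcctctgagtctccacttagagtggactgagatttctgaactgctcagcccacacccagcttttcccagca
Each window held 2 matches, of the same letters, TTTCACTTTC and TTTCAGTTTC. They lay closer to the start in Ifit1 than in Ifit3.

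The Oas genes make 2′-5′-linked oligoadenylates that activate an RNA-degrading enzyme. Oas3, the member tied to the sensing of long double-stranded RNA, was the only abundant one, with 3119 and 2269 counts, a log2 ratio of -0.49 (-0.57 to -0.41), which was the lowest of the 27 genes past neither limit. Oasl2 had 31 and 29 counts. Of the others among the 50, all were at the edge of detection, Oas1a with 1 and 3 counts, Oas2 with 3 and 1, and Oasl1 with 2 and 1. None of these 5 was past the rule. A relative outside the 50 and picked after its values were seen, Oas1c, had 51 and 107 counts, 2.05-fold higher (1.46 to 2.93).

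The Gbp genes, which encode guanylate-binding GTPases that attack the membranes of intracellular pathogens, had 2 higher members among 3 measured. All 3 stood above a log2 ratio of 0. Of all measured genes 8.43% were higher, and 20.9% of those under a mean of 10 CPM, where Gbp3 and Gbp7 lie. Gbp7 (ENSMUSG00000040253) had 136 and 314 counts, 2.26-fold higher (1.84 to 2.79). Gbp3 (ENSMUSG00000028268) had 122 and 260 counts, 2.09-fold higher (1.68 to 2.61). Gbp2, the most abundant, had 554 and 1039 counts, a log2 ratio of 0.88 (0.73 to 1.03), short of the limit. The 3 genes lie in 1 cluster on chromosome 3, from 142530342 to 142638008, and as members of a multigene family they are uncertain where reads were split between them. Nearby genes were also above 0. Of the 6 nearest measured protein-coding neighbours of Gbp3, Gbp7 and Gbp2 are themselves among the 50, and the other 4 were Gbp2b, Kyat3, Pdlim5 and Bmpr1b, with log2 ratios of 0.62, 1.73, 0.45 and 0.34. Chromosome 3 as a whole had a median of 0.13, and with each chromosome centred the log2 ratio of Gbp3 was 0.93, under the limit. The gene model Gm43802 lies over 11.3% of the exonic bases of Gbp7. The windows of Gbp3 (chr3:142559794-142560093, plus strand) and Gbp2 (chr3:142620413-142620712, plus strand) show the core shortly before the start in both genes.
Gbp3: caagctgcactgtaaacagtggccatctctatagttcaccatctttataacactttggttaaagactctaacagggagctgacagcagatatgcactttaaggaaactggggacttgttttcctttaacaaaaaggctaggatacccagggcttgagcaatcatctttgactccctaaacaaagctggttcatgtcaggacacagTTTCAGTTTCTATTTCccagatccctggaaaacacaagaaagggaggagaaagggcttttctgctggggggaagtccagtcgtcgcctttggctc
Gbp2: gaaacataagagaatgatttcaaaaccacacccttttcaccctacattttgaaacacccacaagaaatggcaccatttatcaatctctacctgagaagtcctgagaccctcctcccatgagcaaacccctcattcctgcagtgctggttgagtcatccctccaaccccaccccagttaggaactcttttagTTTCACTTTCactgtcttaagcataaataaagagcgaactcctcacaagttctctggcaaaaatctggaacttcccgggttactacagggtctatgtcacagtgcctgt
Gbp3 held 2 overlapping matches here and none in the window of its second annotated start, Gbp2 held 1, and Gbp7 held 1 at a similar distance from its start.

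**Figure D3:**
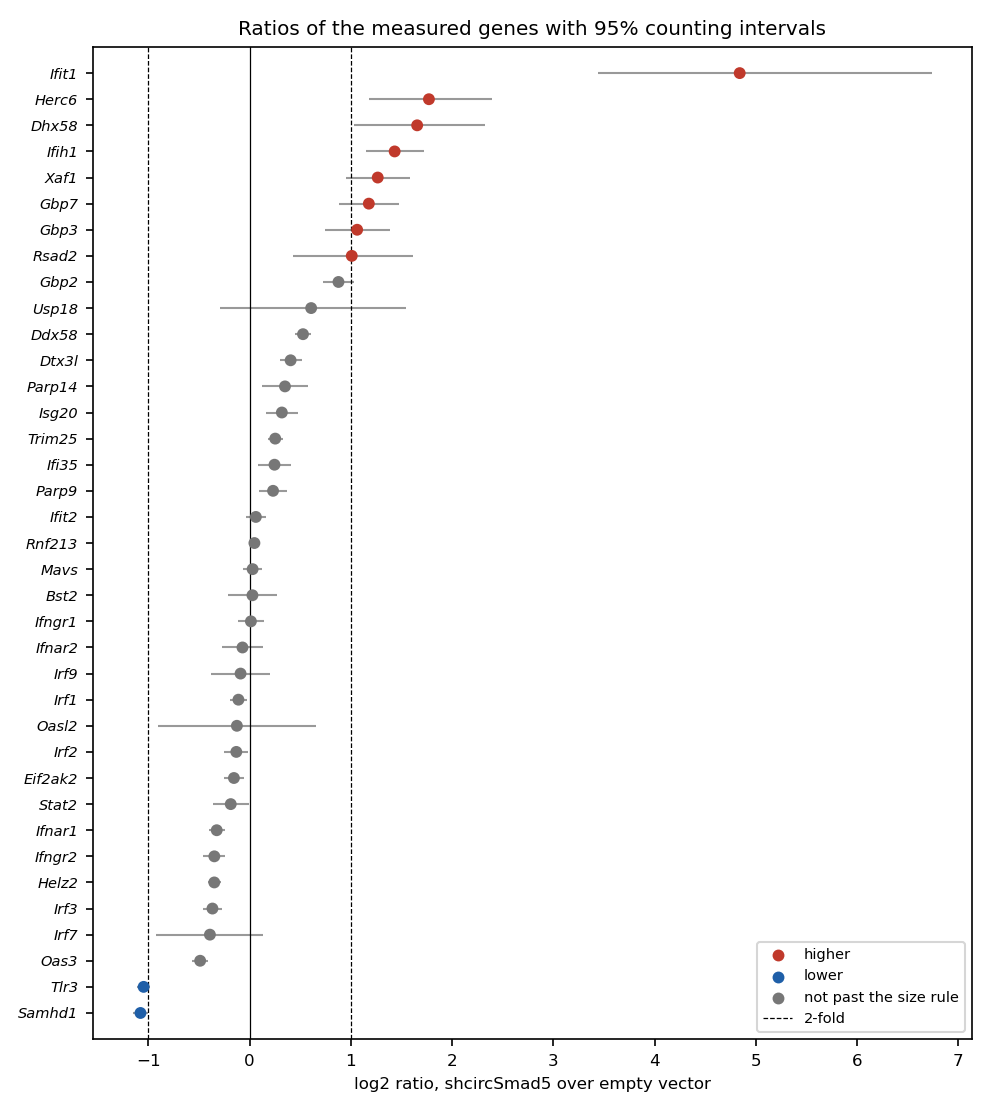
Log2 ratio of shcircSmad5 over empty vector for the 37 measured genes, with exact 95% counting intervals as bars and 2-fold as dashed lines. Of the 8 higher genes (red), 4 have intervals wholly beyond 2-fold, namely Ifit1, Herc6, Dhx58 and Ifih1.

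Genes of the ISG15 system and of ubiquitin and ADP-ribose transfer had 1 higher member among 7 measured, beside 8.43% of all measured genes. ISG15 is a ubiquitin-like protein that is among the most strongly interferon-induced products in most cells. Isg15 itself had only 4 and 10 counts, and Usp18, the protease that removes ISG15 and damps receptor signalling, had 18 and 28. Herc6, the mouse ligase of ISG15, had 31 and 108 counts and was 3.41-fold higher (2.27 to 5.27). Of its exonic bases, 13.7% lie under the gene model Gm45193. Trim25, the ubiquitin ligase that activates RIG-I, had 2861 and 3480 counts, a log2 ratio of 0.25 (0.18 to 0.32). Dtx3l and Parp9, partner genes that overlap head to head on chromosome 16, had log2 ratios of 0.40 (0.29 to 0.51) and 0.23 (0.10 to 0.37), and the nearby Parp14 had 0.35 (0.13 to 0.57). Rnf213, a giant ubiquitin ligase and the gene with the most counts of the 46, had 10983 and 11585, a log2 ratio of 0.05 (0.01 to 0.08). Trim30a had 0 and 5 counts. The window of Isg15 (chr4:156200769-156201068, minus strand) is shown because it holds the core in a gene that was barely detected.
Isg15: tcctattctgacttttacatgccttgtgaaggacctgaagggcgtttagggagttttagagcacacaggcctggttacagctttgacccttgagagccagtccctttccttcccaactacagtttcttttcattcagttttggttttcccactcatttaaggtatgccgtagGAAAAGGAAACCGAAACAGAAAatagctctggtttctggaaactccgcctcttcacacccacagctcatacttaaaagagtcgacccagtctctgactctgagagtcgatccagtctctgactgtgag
It held 3 overlapping matches in 1 block, the most of any gene here.

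Among effectors that act on nucleic acids and nucleotides, the directions were mixed. Samhd1 (ENSMUSG00000027639, chromosome 2, 157097533 to 157135265) encodes a dNTP hydrolase that starves retroviruses, lentiviruses among them, of DNA building blocks. It went from 4087 to 1976 counts, 2.11-fold lower (2.00 to 2.23). With each chromosome centred its log2 ratio was -0.92, under the limit, and chromosome 2 had a median of -0.16. Its 6 nearest measured neighbours had a median of -0.11, and none of them was past the rule. Rsad2, the gene of viperin, which makes a chain-terminating nucleotide, had 37 and 76 counts and was 2.01-fold higher (1.34 to 3.07), just past the limit, and it was under the limit with a prior count of 2, with FPKM and with each chromosome centred (log2 ratio 0.93). Cmpk2, its neighbour on chromosome 12, which is usually induced with it, had 18 and 15 counts. Helz2, a helicase coactivator, had 4772 and 3824 counts, a log2 ratio of -0.35 (-0.41 to -0.29). Eif2ak2, the gene of PKR, a kinase that halts translation on binding double-stranded RNA, had 1657 and 1519, a log2 ratio of -0.16 (-0.26 to -0.05). Chromosome 17, where Eif2ak2 lies, had a median of -0.38, and with each chromosome centred its log2 ratio was 0.23. The exonuclease gene Isg20 had a log2 ratio of 0.32 (0.16 to 0.48). Zbp1, a sensor of left-handed double helices, had 18 and 15 counts.

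Of the remaining interferon-induced genes, Xaf1 was higher. It encodes a pro-apoptotic partner of XIAP and had 119 and 292 counts, 2.40-fold higher (1.94 to 3.00). None of its 6 nearest measured neighbours was past the rule, and their median log2 ratio was 0.01. Bst2, the gene of tetherin, which holds budding viruses at the cell surface, had 271 and 282 counts, and Ifi35 had 566 and 685 (16.8% of its exonic bases opposite Gm11626), log2 ratios of 0.03 (-0.22 to 0.27) and 0.25 (0.08 to 0.41). The chemokine gene Cxcl10, a sensitive marker of interferon exposure, had 10 counts with the empty vector and 2 with shcircSmad5.

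Matches of the response element core were more frequent in the promoter windows of these genes than over all genes. Most of these genes were chosen as interferon-stimulated, so this excess describes the choice and is not a test. The matches were found among higher genes, genes past neither limit and genes under 20 counts. The 2 windows of the lower genes held none, but that of Tlr3 lies inside its gene span. RefSeq windows matched 42 of the 50 symbols. The core was found on either strand in 18 of the 42 (42.9%), beside 3.99% of all 27025 genes with a window and 3.94% of protein-coding ones. It was in 5 of the 7 higher genes with a window (Ifit1, Ifih1, Gbp7, Gbp3 and Rsad2), in 0 of the 2 lower ones, in 7 of 24 measured genes past neither limit, in 5 of 7 genes under 20 counts, and in Ifit3b, which matched no row. Xaf1 and Herc6 held no match in their windows, and Dhx58 had no window. The gamma-activated site TTCNNNGAA, which reads the same on both strands, was in 12 of the 42 genes, beside 9.55% of all genes, and in 1 of the 7 higher ones, Gbp7. In Bst2 a match of this site overlaps one of the core. A match describes the letters of these windows, not binding.

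**Figure D4:**
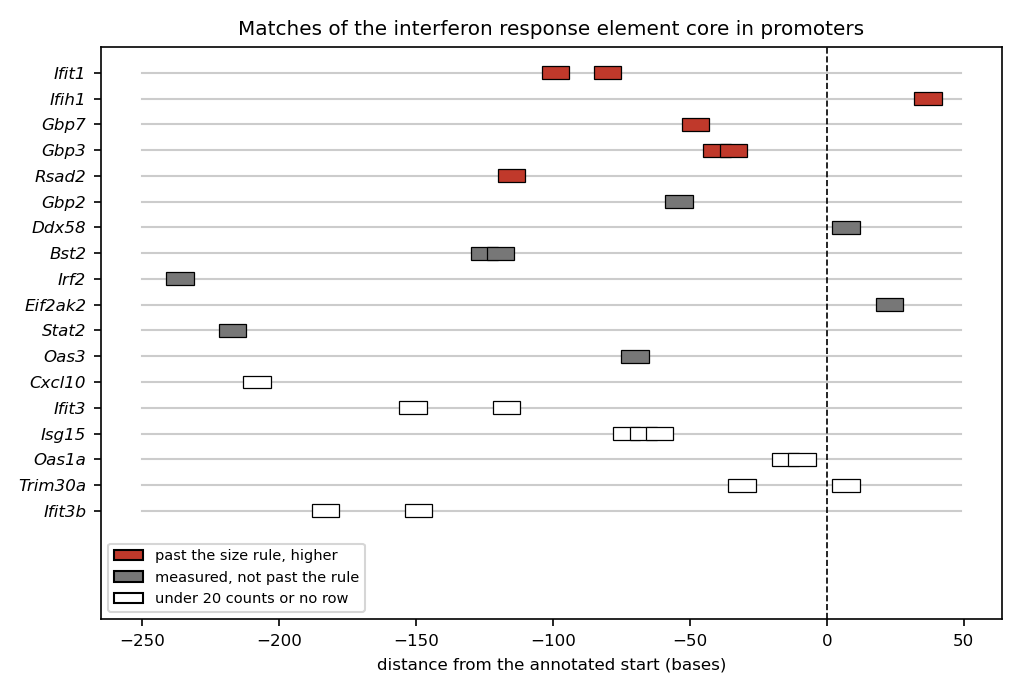
Position of each match of the response element core (boxes) in windows from 250 bases before to 50 bases after the annotated start, in bases from the start, for the 18 genes that hold one. Genes are ordered by ratio, with the 5 higher genes in red at the top and those under 20 counts or with no row in white at the bottom, and Trim30a shows 2 windows. Only genes that hold a match are drawn, and no lower gene is among them.

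The rest of the pathway was read from lists chosen by function with earlier results of these data known, and the 50 genes were left out. Of 21 interferon ligand genes, Ifne and Ifnab had a row, with 0 and 4 counts and 0 and 1 count, so interferon transcripts were at the edge of detection or not analysed here. For the lists that follow, the background was 8.43% higher and 6.24% lower over all measured genes. Among genes with a mean of 10 CPM or more it was 1.42% and 2.93%, so few calls or none also describe most genes at that level. Of the 13 receptor and JAK-STAT genes analysed here, 0 were higher and 0 lower, with a median log2 ratio of 0.21. Those with the most counts, the phosphatase genes Ptpn11 and Ptpn1 and the kinase gene Jak1, had log2 ratios of -0.31, -0.22 and -0.15. Socs1, a feedback inhibitor of JAK kinases that was picked after its values were seen, had 35 and 69 counts, a log2 ratio of 0.95 (0.34 to 1.58). Of 17 measured genes of nucleic acid sensing, 0 were higher and Irf5 was lower, on 56 and 14 counts, 4.08-fold (2.24 to 7.94), with 14.1% of its exonic bases under Tnpo3 on the other strand. Ticam1, the gene of TRIF, the adaptor of Tlr3, was also picked after its values were seen and had 881 and 553 counts, a log2 ratio of -0.70 (-0.86 to -0.55). Of 7 measured genes of DNA sensing, 0 were higher and Mndal was lower (51 and 25 counts, 2.08-fold, 1.27 to 3.51), and Sting1 had 0 counts in both libraries. None of 15 measured NF-kB feedback genes was past the rule, and those with the most counts, Nfkb2, Cxcl1 and Nfkbiz, had log2 ratios of -0.37, -0.88 and 0.09.

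A longer list of 75 other interferon-stimulated genes showed no single direction. Of its 40 measured genes, 6 were higher (15.0%) and 5 lower (12.5%), beside the background of 8.43% and 6.24%, and its median log2 ratio was -0.06. The gene of the lysosomal thiol reductase, Ifi30, had 2039 and 826 counts, 2.52-fold lower (2.32 to 2.74), with 8.66% of its exonic bases opposite 6330537M06Rik. The galectin gene Lgals9 went from 662 to 237 counts, 2.85-fold lower (2.45 to 3.32), and Slfn2, a Schlafen gene, from 252 to 124, 2.07-fold lower (1.67 to 2.59). With total counts in place of TMM, Slfn2 and Mndal were both short of the 2-fold limit. Lgals3bp, the gene of a galectin-binding protein, had 94 and 295 counts and was 3.07-fold higher (2.43 to 3.92). Among genes picked after their values were seen, Ddx60, a helicase gene tied to RIG-I, had 0 and 24 counts. It was at least 5.90-fold higher by the lower limit of its counting interval, and 7.84-fold higher with 3 counts in place of the 0. The Gbp relative Gbp9 on chromosome 5 went from 95 to 25 counts, 3.88-fold lower (2.48 to 6.29), whereas the measured genes of the chromosome 3 cluster stood above 0.

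**Figure D5:**
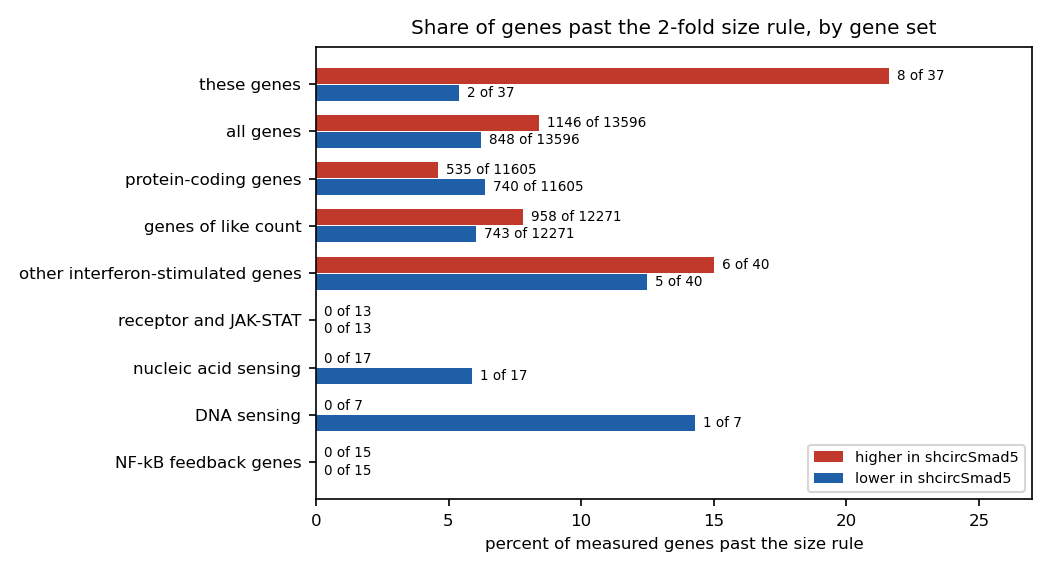
Percent of measured genes past the 2-fold size rule, higher (red) and lower (blue), for the 37 genes described here, the 3 backgrounds and 5 lists of other pathway genes, with counts beside each bar. The 37 genes have 21.6% higher, above each background, and 5.41% lower, near each background. The 37 genes and the lists were chosen with earlier results of these data known.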

How the data were processed

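RNA was measured in 2 libraries, 1 per group. Per the labels' protocols, 3 µg of total RNA was depleted of ribosomal RNA and made into strand-specific libraries. The submitters' processing notes name HISAT2, HTSeq 0.13.5 and 2 builds, GRCm38 and GRCh38, with no roles. Annotation and strand setting: not given in the sources used here. Per the file headers, raw read counts and FPKM values per gene were deposited by the authors. The deposited FPKM equals the count divided by the library total and a whole gene length for 100% of genes above 0, within 0.001 bases. That length matched GENCODE M21 (GRCm38) for 98.0% (empty vector) and 98.1% (shcircSmad5) of genes. 0 columns of values were left unmatched.

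Counts of all 22383 genes were scaled by TMM (edgeR 4.0.16, R 4.3.3), and ratios, intervals and the size rule were computed with scipy 1.17.1. edgeR gave the scaling only, since 1 library per group allows no test. For ratios, 3 counts replaced a 0. Coordinates and overlaps came from GENCODE M21 by gene ID (22319 matched). Promoter sequences came from RefSeq on GRCm38.p6, and for 42 of 49 windows the bases after the start were found in a transcript of the gene.

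All genes past the size rule are named in full, the 10 with the most counts among the rest with their counts, and others by role. From each list of other genes come up to 4 past the rule with the most counts, or 3 where none passed. One gene of the receptor and JAK-STAT list is not reported here. The members and lists were chosen with earlier results of these data known. Other scalings, FPKM, prior count, count minimums, fold limits and overlap filters were tried as alternatives.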

Additional observations from a re-analysis of the deposited data

How the results depend on the processing

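All 8 genes that were higher kept that call under total counts, DESeq2 1.42.0 size factors and upper quartile scaling. Both lower genes sat near the limit, so the count of lower genes depended on the scaling: it was 1 with total counts, with upper quartile scaling and with the deposited FPKM as log2(FPKM + 0.1), where Tlr3 dropped out, and 0 with each chromosome centred, where the higher count was 6, without Gbp3 and Rsad2. With a fold limit of 3, 3 genes were higher (Ifit1, Herc6 and Dhx58) and 0 lower. Without genes that have over 10% of their exonic bases under exons of another gene, 6 of 34 were higher, without Gbp7 and Herc6, and 2 lower. With a minimum of 10 counts or none, Cxcl10 joined the lower genes. Over 222 values of the 37 genes under 6 alternatives, 200 stayed within the counting interval and 22 did not. Of the genes past the size rule 0 changed sign, and this was not tallied for the rest. With each chromosome centred, signs changed for Eif2ak2 (0.23), Ifit2 (-0.08), Rnf213 (-0.05), Ifngr1 (-0.06), Irf2 (0.0005) and Oasl2 (0.0006). The medians under the scalings and count minimums ran from 0.03 to 0.15. Split by level, which was chosen after the data were seen, the scarcer genes had 0 lower and a median of 1.01, and the more abundant ones had 0 higher. The background share of higher genes was 4.61% among protein-coding genes.

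Among other pathway genes, in alternatives added after the data were seen, Irf5 was lost without genes under exons of another gene, which left 0 lower nucleic acid sensing genes. With total counts, 1 receptor and JAK-STAT gene was higher (Socs1) and 0 DNA sensing genes were lower. Shifts of the median over all genes were at most 0.06. No paired analysis was possible because each group has 1 library. Ifit3 could not be summed with Ifit3b, which matched no row. Depth limits the genes under 20 counts: the interval of the Isg15 ratio ran from 0.706 to 10.7.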
